A study of Mus musculus with 6 samples.

Results

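The 9 genes described here encode the dystrophin-associated complex of the cell membrane and the dystrobrevins that bind to it: Dtna, Dtnb, Dmd, Utrn, Dag1, Sgcb, Sgcd, Sntb1 and Sntb2. They were selected by gene symbol, among probe sets that the platform annotation gives exactly 1 symbol, and the probe set with the highest mean over all 6 arrays was to be kept. Each of the 9 genes had a single such probe set, so the mean level decided nothing for them, and they stand as 9 of the 19938 genes tested. The set was selected on measured values too: it was put together with results of the comparison below known, among them the difference in Dtna. The members' differences and calls are therefore a description, and no p is printed for Dtna. Adjusted p-values printed for the other members are part of that description and are not evidence about the set.

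The arrays held RNA of immortalized neural precursor-like cells in which Lgi1 was homozygously deleted (Lgi1 knock-out, 3 arrays) and of such cells that were wild type for the gene (Lgi1 wild type, 3 arrays). The cells of both genotypes were derived from C57BL/6J embryonic brain of day 13.5, had been immortalized and were kept in RPMI with 1% foetal bovine serum. Lgi1 encodes a secreted neuronal protein whose loss causes epilepsy. The number of embryos or lines behind the replicates is not given, so p-values and errors cover only the variation among these samples, which could be technical.

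Values are the deposited log2 values of Affymetrix Mouse Gene 1.0 ST arrays, differences are knock-out minus wild type on that log2 scale, and a gene is said to be called, to have risen or to have fallen at a limma adjusted p under 0.05. Of all genes, 31.6% were called, 14% as higher and 17.6% as lower, and 5.32% differed at least 2-fold. The array's genes for olfactory and vomeronasal receptors, proteins of the nose, served as a measure of background, and the 95th percentile of their means was 5.68. Lgi1 itself lay under that level on every array, at 4.53, 4.57 and 4.54 in knock-out cells and 4.61, 4.75 and 4.94 in wild-type cells (log2 difference −0.22, limma adjusted p = 0.075), so it does not check the genotype labels. It passed with the replicate number as a block (limma adjusted p = 0.046), and its limma adjusted p ran from 0.018 to 0.23 over the alternatives. The genotypes also differed in sex-linked RNA, with Xist at 12.44 in knock-out and 4.64 in wild-type cells and the Y-linked Eif2s3y at 4.67 in knock-out and 10.19 in wild-type cells. The Y-linked Uty (−5.21) and Kdm5d (−3.80) were also lower, so genotype and the sex of the cells cannot be told apart.

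The dystrophin-associated complex links the actin cytoskeleton to the extracellular matrix. Dystrophin or its paralogue utrophin binds actin inside the cell and dystroglycan at the membrane, dystroglycan binds laminin outside, sarcoglycans brace dystroglycan within the membrane, and dystrobrevins and syntrophins attach signalling proteins and channels to the dystrophin end. The complex is best known from skeletal muscle, where its loss causes muscular dystrophies. In brain it sits in astrocyte endfeet around vessels, where it holds water and potassium channels in place, and in some synapses.

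The clearest differences were a near loss of the α-dystrobrevin signal and the appearance of a δ-sarcoglycan signal in knock-out cells. By the measured means Dtna was 18.5-fold lower and Sgcd 20.9-fold higher, at ranks 72 and 60 by absolute difference among the 19938 genes. The dimmer group of each lay under background, so these folds and ranks rest in part on background values. With that group set to 5.68, Dtna was 16.3-fold lower and Sgcd 12.6-fold higher. Dmd, Sntb2, Sntb1 and Sgcb were higher by smaller amounts, Dag1 was slightly lower, and Utrn and Dtnb did not pass. In all, 5 members were called higher and 2 lower, that is 7 of 9, where the share over all genes was 31.6%. Among the 9969 genes above the median level, 53.5% were called, as were 6 of the 8 members above it. The median absolute log2 difference of the members was 0.46 and that of all genes was 0.11. Since the members were gathered with this comparison known, nothing is read from these counts.

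**Figure D1:**
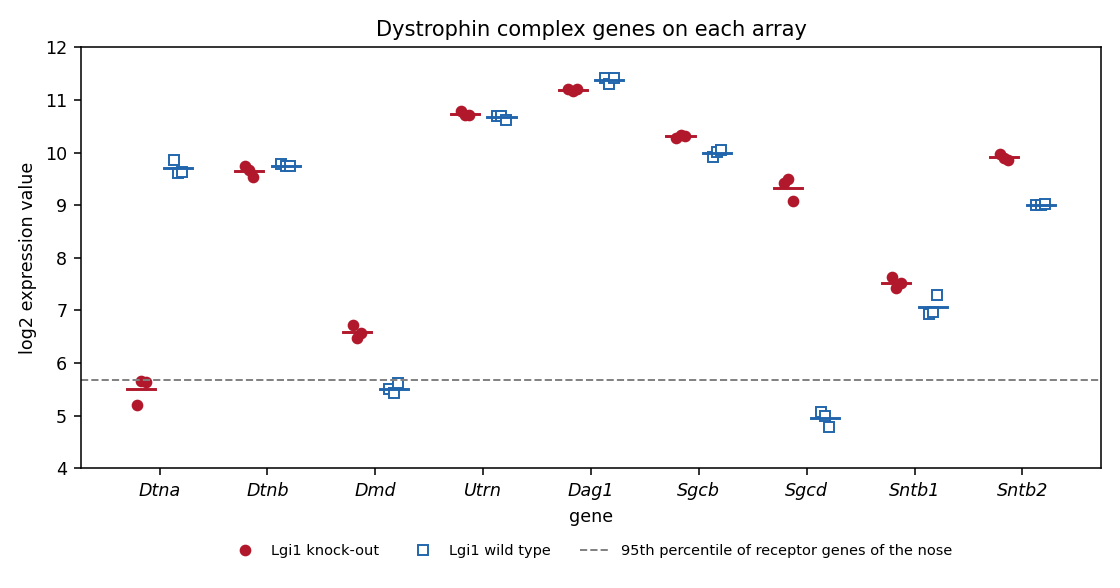
Log2 values of the 9 genes on each array (points; lines are means of 3), with Lgi1 knock-out to the left of Lgi1 wild type for each gene and the dashed line at 5.68, the 95th percentile of receptor genes of the nose. Dtna falls to the dashed line in knock-out cells and Sgcd lies under it in wild-type cells; heights are not comparable between genes, since probe sets differ in brightness.

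Dystrobrevins are relatives of dystrophin that bind it through a coiled coil and also bind syntrophins. Dtna (probe set 10454254), the α-dystrobrevin gene, had log2 values of 5.20, 5.65 and 5.64 in knock-out cells, against 9.86, 9.62 and 9.63 in wild-type cells. The 3 knock-out arrays all lay under the background level of 5.68 and the 3 wild-type arrays far above it, with no overlap. The means were 5.50 ± 0.256 in knock-out and 9.70 ± 0.139 in wild-type cells (SD, n = 3 each), and the log2 difference was −4.21 (SE 0.12, 95% interval −4.48 to −3.93). With the knock-out mean set to 5.68 the difference was −4.02. In a culture, fewer cells that carry a transcript and less of it per cell cannot be told apart.

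Dtnb (probe set 10394186) encodes β-dystrobrevin, the paralogue of non-muscle tissues, neurons among them. Its log2 values were 9.75, 9.67 and 9.53 in knock-out cells and 9.78, 9.74 and 9.74 in wild-type cells. The arrays of the genotypes overlapped, since knock-out replicate 1 lay within the range of the wild type. The log2 difference was −0.10 (SE 0.07, limma adjusted p = 0.36), with a 95% interval of −0.26 to 0.06. The Dtna difference minus the Dtnb difference was −4.11 on the log2 scale (SE 0.21), which is given without a test.

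The dystrophin family members bind actin and dystroglycan. Utrn (probe set 10367843), the gene of utrophin, which stands in for dystrophin in many cells outside mature muscle, had log2 values of 10.78, 10.72 and 10.71 in knock-out cells and 10.69, 10.69 and 10.62 in wild-type cells. Although the 3 knock-out arrays lay above the 3 wild-type arrays, as the arrays of one genotype did above or below those of the other for 42.3% of all genes, the gap was small. The log2 difference was 0.07 (SE 0.06, limma adjusted p = 0.47), and its 95% interval ran from −0.06 to 0.20, well short of a 2-fold change.

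Dmd (probe set 10600604), the X-linked dystrophin gene, had log2 values of 6.71, 6.47 and 6.58 in knock-out cells, against 5.51, 5.42 and 5.61 in wild-type cells. All wild-type arrays lay under the background level of 5.68, so no signal above background was seen there, and all knock-out arrays lay above it. The log2 difference was 1.07 (SE 0.08, limma adjusted p = 3.2e-06), or 0.90 with the wild-type mean set to 5.68. Of the 739 genes of chromosome X, 86 were called higher and 174 lower and 27 were at least 2-fold higher, with a median log2 difference of −0.03. Whether the difference in Xist bears on Dmd was not tested. The Utrn difference minus the Dmd difference was −1.001 (SE 0.0957). Dystrophin RNAs run from several start sites, and a single value per gene cannot say which of them rose.

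The sequences before the 2 start sites of Dmd in the RefSeq table are shown because the single value does not tell their RNAs apart. Each run is the 250 bases upstream of a start, read 5′ to 3′ on the plus strand of build GRCm38.p6, from chrX:82948620-82948869 and chrX:85048045-85048294. Capitals mark E-boxes (CANNTG, the sites of basic helix-loop-helix factors) and CArG boxes (the sites of serum response factor).
Dmd start 1: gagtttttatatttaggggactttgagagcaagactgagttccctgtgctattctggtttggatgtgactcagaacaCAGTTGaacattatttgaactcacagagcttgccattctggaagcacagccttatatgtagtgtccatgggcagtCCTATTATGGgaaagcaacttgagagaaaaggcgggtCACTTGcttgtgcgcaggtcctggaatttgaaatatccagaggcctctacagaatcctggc
Dmd start 2: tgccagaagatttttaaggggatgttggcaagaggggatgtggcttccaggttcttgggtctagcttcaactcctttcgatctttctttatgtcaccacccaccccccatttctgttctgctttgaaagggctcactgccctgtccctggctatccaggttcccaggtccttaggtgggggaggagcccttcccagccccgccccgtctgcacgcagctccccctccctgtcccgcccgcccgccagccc
The first window holds 2 E-boxes and 1 CArG box, which do not overlap, and no GC box (GGGCGG on either strand). The second holds neither an E-box nor a CArG box but 3 GC boxes. Both strands were searched. An E-box is held by 66.2% of the 32841 RefSeq windows of this length, a CArG box by 1.47% and a GC box by 32.7%. The windows are 45.2% and 60% G and C, against a median of 52.4% over all windows. A match is a run of letters and not evidence of binding.

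Dag1 (probe set 10596893) encodes dystroglycan, the membrane receptor that joins dystrophin or utrophin to laminin. Its log2 values were 11.20, 11.18 and 11.21 in knock-out cells, against 11.42, 11.31 and 11.42 in wild-type cells. The knock-out arrays lay below the wild-type arrays without overlap, by a small margin. Dag1 fell by 0.19 on the log2 scale (SE 0.06, limma adjusted p = 0.039). The call lay near the threshold and was lost in 5 of the 6 fits with 1 array left out, with limma adjusted p-values up to 0.12. It held without wild-type replicate 2 (limma adjusted p = 0.031). The log2 difference stayed between −0.22 and −0.17 in all 6 fits.

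Sarcoglycans are membrane proteins that form a complex of 4 subunits beside dystroglycan, in which the β and δ chains form the core. Sgcd (probe set 10385466), the δ-sarcoglycan gene, had log2 values of 9.42, 9.50 and 9.08 in knock-out cells, against 5.06, 4.98 and 4.79 in wild-type cells. Every wild-type array was under the background level of 5.68 and every knock-out array far above it. The means were 9.33 ± 0.222 in knock-out and 4.95 ± 0.139 in wild-type cells (SD, n = 3 each), and Sgcd rose by 4.39 (SE 0.11, limma adjusted p = 8.4e-10), or by 3.65 with the wild-type mean set to 5.68.

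Sgcb (probe set 10530633), the gene of β-sarcoglycan, had log2 values of 10.28, 10.33 and 10.32 in knock-out cells and 9.92, 10.01 and 10.04 in wild-type cells. It was measured well above background in both genotypes, and the arrays did not overlap. Sgcb rose by 0.32 (SE 0.06, limma adjusted p = 0.0025), and the Sgcd difference was larger by 4.07 (SE 0.17). So the gene of one core chain was above background in both genotypes and that of the other in knock-out cells only.

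The 250 bases upstream of the single RefSeq start of each of these sarcoglycan genes are shown because these core chains of one complex differed so unequally. They lie on the minus strand of build GRCm38.p6, Sgcd at chr11:47379326-47379575 and Sgcb at chr5:73647738-73647987, and capitals mark E-boxes and CArG boxes as above.
Sgcd: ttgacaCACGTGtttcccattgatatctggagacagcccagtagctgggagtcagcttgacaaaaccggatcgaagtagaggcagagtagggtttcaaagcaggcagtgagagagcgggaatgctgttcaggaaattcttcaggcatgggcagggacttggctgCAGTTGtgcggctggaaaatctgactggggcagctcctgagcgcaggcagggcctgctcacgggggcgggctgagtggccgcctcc
Sgcb: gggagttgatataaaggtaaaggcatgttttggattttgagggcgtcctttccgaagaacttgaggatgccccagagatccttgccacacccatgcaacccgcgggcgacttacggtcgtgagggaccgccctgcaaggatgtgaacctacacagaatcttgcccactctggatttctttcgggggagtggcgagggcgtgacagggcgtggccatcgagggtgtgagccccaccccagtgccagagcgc
The Sgcd window holds 2 E-boxes and the Sgcb window none, neither holds a CArG box, and each holds 1 GC box. They contain 9 and 14 CpG pairs, where the median over all windows is 6. No match says only that these letters are not in this window. Of the 9 genes, 6 had a window among those used here. The lack of a window for the other members does not show that RefSeq gives them no start.

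Syntrophins are adaptors that bind dystrophin and dystrobrevin on one side and channels, kinases and lipid transporters on the other. Sntb2 (probe set 10575120), the β2-syntrophin gene, had log2 values of 9.97, 9.91 and 9.86 in knock-out cells, against 9.006, 9.005 and 9.019 in wild-type cells. The groups were about 1 log2 unit apart and tight. Sntb2 rose by 0.90 (SE 0.06, limma adjusted p = 1.1e-06), which is 1.87-fold.

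Sntb1 (probe set 10428698), the β1-syntrophin gene, had log2 values of 7.63, 7.42 and 7.53 in knock-out cells, against 6.94, 6.97 and 7.29 in wild-type cells. Wild-type replicate 3 lay nearer to the knock-out arrays than the other wild-type arrays did, without overlap. Sntb1 rose by 0.46 (SE 0.10, limma adjusted p = 0.0050), and the Sntb1 difference minus the Sntb2 difference was −0.44 (SE 0.12). Both syntrophin genes thus rose while the dystrobrevin gene Dtna fell.

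**Figure D2:**
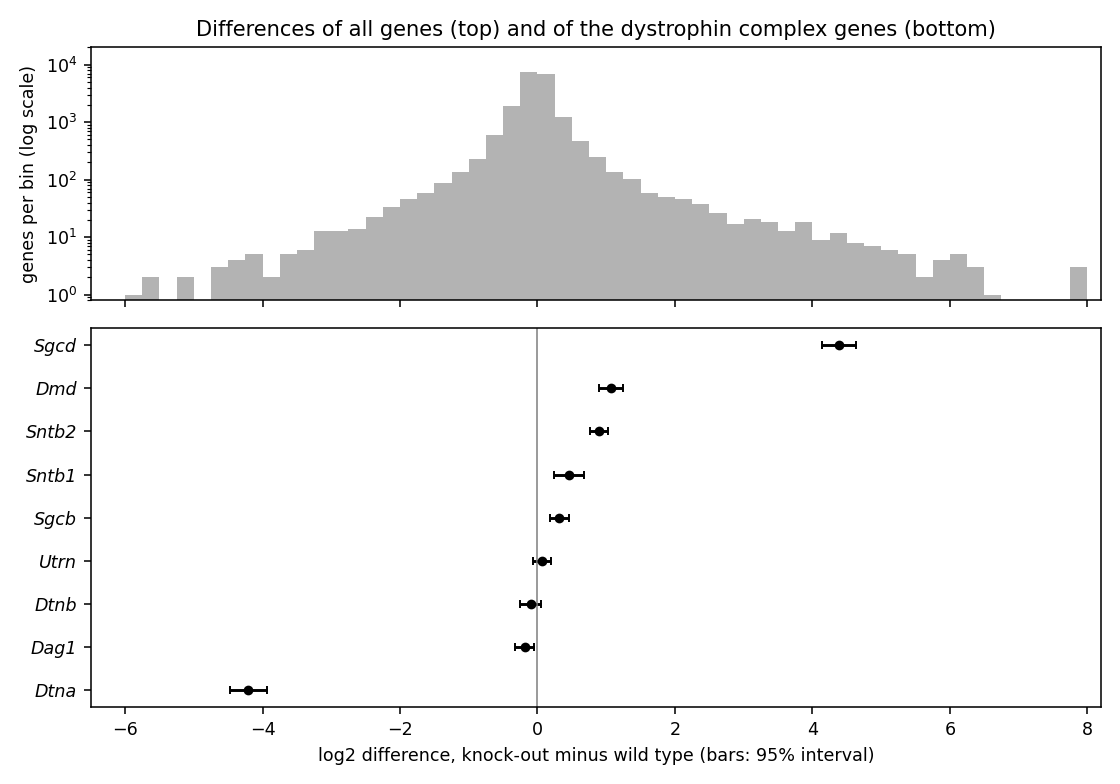
Log2 differences, knock-out minus wild type, of all 19938 genes as a histogram with a log count axis (top) and of the 9 members as points with 95% intervals (bottom). Sgcd at 4.39 and Dtna at −4.21 lie in the sparse tails, and the other 7 members lie between −0.19 and 1.07.

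Of 7 further genes of the complex that were measured none was called by limma, where 31.6% of all genes were. This list and those below were chosen with earlier results of these data known, so their counts are a description. In 4 of the 7 (Sgca, Sgcz, Sntg1 and Sntg2) both genotypes lay under background, so that a difference could be seen in Drp2, Sspn and Sgce only. By unadjusted p, 1 of the 7 was under 0.05: Drp2, a dystrophin relative of the Schwann cell membrane, with means of 6.45 ± 0.0912 in knock-out and 6.67 ± 0.14 in wild-type cells (SD, n = 3 each; log2 difference −0.22, limma adjusted p = 0.071). Drp2 was called lower with the replicate number as a block (limma adjusted p = 0.040), after quantile normalization (0.046), after centring the arrays (0.04994), among genes above the median level (0.049) and without wild-type replicate 3 (0.016).

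Sspn, the gene of sarcospan, a small membrane protein that stabilizes the sarcoglycans, had means of 9.20 ± 0.057 in knock-out and 9.08 ± 0.0696 in wild-type cells (SD, n = 3 each), which did not pass (log2 difference 0.12, limma adjusted p = 0.21). Sgce, the gene of ε-sarcoglycan, which takes the place of α-sarcoglycan outside striated muscle, had means of 11.48 in knock-out and 11.47 in wild-type cells (log2 difference 0.01, SE 0.07). Its 95% interval was −0.14 to 0.16. The striated muscle chain Sgca stayed under the background level in both genotypes, with means of 4.70 in knock-out and 4.78 in wild-type cells. Thus Sgcb, Sgce and Sspn gave a signal in both genotypes, Sgca in neither, and Sgcd in knock-out cells alone.

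The extracellular ligands of dystroglycan bind its sugar chains through laminin G domains. Of 8 measured ligand genes 1 rose and 3 fell (50% called, against 31.6% of all genes), and 3 of the 4 that were not called lay under background in both genotypes. Among genes above the median level 3 of 4 were called, where 53.5% of all such genes were. Lama5 fell to 6.40 ± 0.0929 in knock-out cells, against 9.32 ± 0.12 in wild-type cells (log2 difference −2.92, SE 0.08, limma adjusted p = 1.2e-09). Lama2, the α chain of the laminin of muscle and glial basement membranes, fell to 8.06 ± 0.0353, against 10.25 ± 0.076 in wild-type cells (log2 difference −2.19, SE 0.06, limma adjusted p = 2.1e-09).

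Lama1, the α chain of early embryonic basement membranes, rose, with means of 6.21 in knock-out and 5.30 in wild-type cells, the second under background (log2 difference 0.91, or 0.53 from the background level, limma adjusted p = 1.1e-06). Hspg2, the gene of perlecan, fell by 0.29 (limma adjusted p = 0.012), and Nrxn3, a neurexin of synapses, lay under background in both genotypes (0.16, limma adjusted p = 0.11). The 3 largest differences among the ligands were thus those of laminin α chains, and they ran in both directions, while the receptor gene Dag1 differed by 0.19.

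Dystroglycan binds its ligands only after a set of enzymes has built a long sugar chain on it. Of 14 measured genes of this pathway 7 rose and 1 fell (57.1% called, against 31.6% of all genes), all of them by less than 2-fold, with a median log2 difference of 0.22. Among genes above the median level 6 of 12 were called, a share no higher than the 53.5% of all such genes. Pomt1, an O-mannosyltransferase, was called higher as well with the replicate number as a block (0.19, limma adjusted p = 0.039, against 0.092 without it). Large2, a glycosyltransferase that extends the laminin-binding chain, had a mean of 5.73 in knock-out cells, just above background, and 5.15 in wild-type cells (log2 difference 0.58, limma adjusted p = 8.1e-05). With the wild-type mean set to 5.68 its difference was 0.05. Gmppb, which makes the mannose donor, rose by 0.52 (limma adjusted p = 5.2e-04), B4gat1, which primes the chain for extension, by 0.45 (limma adjusted p = 8.9e-04), and Dolk, the dolichol kinase, by 0.35 (limma adjusted p = 0.0096). The fall was that of Pomgnt1, which adds N-acetylglucosamine to O-linked mannose (−0.32, limma adjusted p = 0.0017).

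Of 17 measured genes of intracellular proteins that bind the complex, 3 rose, 7 fell and 7 were not called (58.8% called, against 31.6% of all genes, of which more were lower than higher). Among genes above the median level 7 of 10 were called, where 53.5% of all such genes were. In 4 of the 17 both genotypes lay under background, and 1 of these, Nos1, is among the 7 falls. With the replicate number as a block Abca1, a lipid transporter, was also called lower (−0.28, limma adjusted p = 0.018, against 0.053 without the block). Aqp4, the water channel that the complex anchors in astrocyte endfeet, had log2 values of 5.54, 5.12 and 5.42 in knock-out cells, against 7.47, 7.24 and 7.66 in wild-type cells (log2 difference −2.10, or −1.78 from the background level, SE 0.12, limma adjusted p = 5.0e-07). As for Dtna, all knock-out arrays were under the background level and all wild-type arrays above it. Kcnj10, the potassium channel of the same endfeet, lay under background in both genotypes, with means of 4.997 in knock-out and 4.87 in wild-type cells. Ank3, the gene of ankyrin G, an adaptor that binds dystrophin, fell by 1.44 (limma adjusted p = 5.6e-08).

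The RNAs of the 2 intermediate filament proteins that bind α-dystrobrevin differed in opposite directions. Sync, the gene of syncoilin, fell to 9.34 ± 0.175 in knock-out cells, against 10.47 ± 0.1 in wild-type cells (log2 difference −1.13, SE 0.09, limma adjusted p = 6.4e-06). Synm, the gene of synemin, rose, with means of 6.82 ± 0.161 in knock-out and 5.83 ± 0.106 in wild-type cells (log2 difference 0.99, SE 0.09, limma adjusted p = 1.5e-05). The wild-type mean lay just above the background level of 5.68, so the size of the Synm rise rests in part on values near background. Dtnbp1, the gene of dysbindin, which was found as a dystrobrevin partner, fell by 0.40 (limma adjusted p = 0.0015).

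Kif5a, a kinesin that binds β-dystrobrevin, was called higher by 0.95 (limma adjusted p = 0.0022), with 7.35 on knock-out replicate 1 and 6.51 and 6.60 on the other knock-out arrays, against 5.93, 5.84 and 5.83 in wild-type cells. Mast2, a kinase that binds syntrophin, fell by 0.53 (limma adjusted p = 1.5e-04). Nos1, the neuronal nitric oxide synthase that syntrophin anchors, lay under the background level in both genotypes, with means of 4.91 in knock-out and 5.36 in wild-type cells (log2 difference −0.45, limma adjusted p = 5.5e-04).

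**Figure D3:**
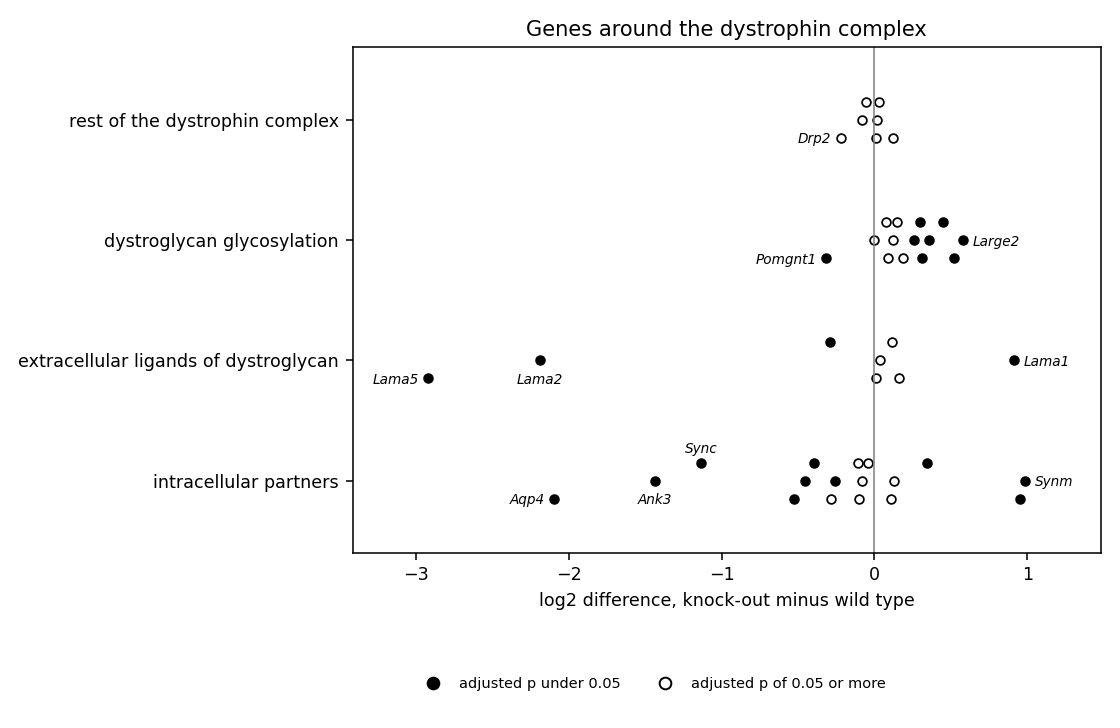
Log2 differences, knock-out minus wild type, of the measured genes of 4 lists around the complex (1 point per gene, filled when the limma adjusted p is under 0.05; vertical offsets only separate points). The rest of the complex lies within −0.22 and 0.12, whereas ligands and intracellular partners reach from −2.92 to 0.99.

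Markers of other cell types moved on the same arrays, and their part in the differences of the complex was not tested. Of 10 markers of fibroblasts and meninges 9 rose and none fell (90% called, against 31.6% of all genes). The log2 of their summed linear values was 14.45 to 14.53 in knock-out and 11.99 to 12.27 in wild-type cells. Such a sum, given below as the summed level, is set mostly by the brightest genes of a list. None of the 10 was under the background level in knock-out cells, and 3 were in wild-type cells. The largest rises were those of Postn (5.77), Col1a2 (5.30), Thy1 (3.72) and Pdgfra (3.06). Smooth muscle and pericytes are known to make δ-sarcoglycan. Of 9 of their markers 5 rose and none fell (55.6% called, against 31.6% of all genes). The summed level was 14.07 to 14.22 in knock-out and 13.73 to 13.93 in wild-type cells. Cnn1 (4.65), Rgs5 (1.29, or 0.79 from the background level), Cspg4 (0.82) and Lmod1 (0.61) were in front. Acta2 (0.16), Tagln (0.02) and Notch3 (−0.19) did not pass. Myh11 lay under background in both genotypes, with means of 4.95 in knock-out and 4.93 in wild-type cells.

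Of 10 skeletal muscle markers 1 fell and none rose (10% called, against 31.6% of all genes). Myod1, Myog and Des were among 6 of the 10 that lay under background in both genotypes. The summed level of the list was 8.80 to 8.84 in knock-out and 8.78 to 8.89 in wild-type cells. Des fell by 0.32 (limma adjusted p = 0.011), and the next largest differences in that list were 0.08 for Myf5, −0.06 for Tnnt3 and −0.04 for Myod1, none past the test.

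Neural and glial markers are set beside Dtna and Aqp4, which radial glia and astrocytes are known to express. Of 10 neural progenitor markers 5 fell and none rose (50% called, against 31.6% of all genes). The summed level was 13.64 to 13.73 in knock-out and 14.02 to 14.16 in wild-type cells. The brightest gene in that sum was Vim, with means of 13.52 in knock-out and 13.53 in wild-type cells. Among the falls were those of Sox2 (−5.92), Fabp7 (−3.21), Nes (−2.01) and Pax6 (−1.69). With the replicate number as a block Msi1, an RNA-binding protein of progenitors, was called higher (0.31, limma adjusted p = 0.019, against 0.17 without the block). The Sox2 mean of knock-out cells, 5.35, was under the background level, so a defining marker of the labelled cell type gave no signal above background there, whereas Nes stood at 8.72 and Vim at 13.52. Of 7 astrocyte markers 1 rose (Slc1a2, 0.49) and 1 fell (Aqp4), so that 28.6% were called, against 31.6% of all genes. Aqp4 and Kcnj10 are also among the intracellular partners above, so this list is not a separate comparison for Aqp4. Of the astrocyte markers 5 were under background in both genotypes, Slc1a2 itself, Gfap and Aldh1l1 among them. The summed level was 10.31 to 10.62 in knock-out and 10.67 to 10.96 in wild-type cells. It rested mostly on Gja1, with means of 10.25 in knock-out and 10.55 in wild-type cells. Gja1 differed by −0.30 and did not pass (limma adjusted p = 0.068), though it did with the replicate number as a block (limma adjusted p = 0.011, and up to 0.23 over the alternatives).

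The remaining lists gave 1 or 2 calls each, and some of these were lost when 1 array was left out. All 6 endothelial markers were under background in both genotypes, although Kdr was called lower (−0.44) and Esam differed by −0.22 without a call (summed level 7.35 to 7.38 in knock-out and 7.40 to 7.59 in wild-type cells). The share called was 16.7%, against 31.6% of all genes. Kdr lost its call without knock-out replicate 1 or 3 (limma adjusted p = 0.057 and 0.053), and Esam gained one without wild-type replicate 3 (0.013). Of 4 measured Schwann cell markers Mbp fell (−0.87) and Pmp22 rose (0.30), that is 50% called. The summed level was 12.75 to 12.92 in knock-out and 12.46 to 12.75 in wild-type cells. It rested mostly on Pmp22, with means of 12.79 in knock-out and 12.48 in wild-type cells. Pmp22 lost its call in 4 of the 6 fits with 1 array left out, with limma adjusted p-values of 0.068 to 0.083. Of 7 neuron markers Syt1 fell (−0.92) and Map2 rose (0.90), that is 28.6% called, and 4 were under background in both genotypes. The summed level was 11.08 to 11.20 in knock-out and 10.41 to 10.54 in wild-type cells. It rested mostly on Map2, with means of 10.95 in knock-out and 10.05 in wild-type cells. The median log2 difference of the list was −0.08. With the replicate number as a block Egr2 of the Schwann cell list (−0.22, limma adjusted p = 0.030) and Stmn2 (−0.19, 0.035) and Tubb3 (−0.29, 0.042) of the neuron list were also called lower.

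**Figure D4:**
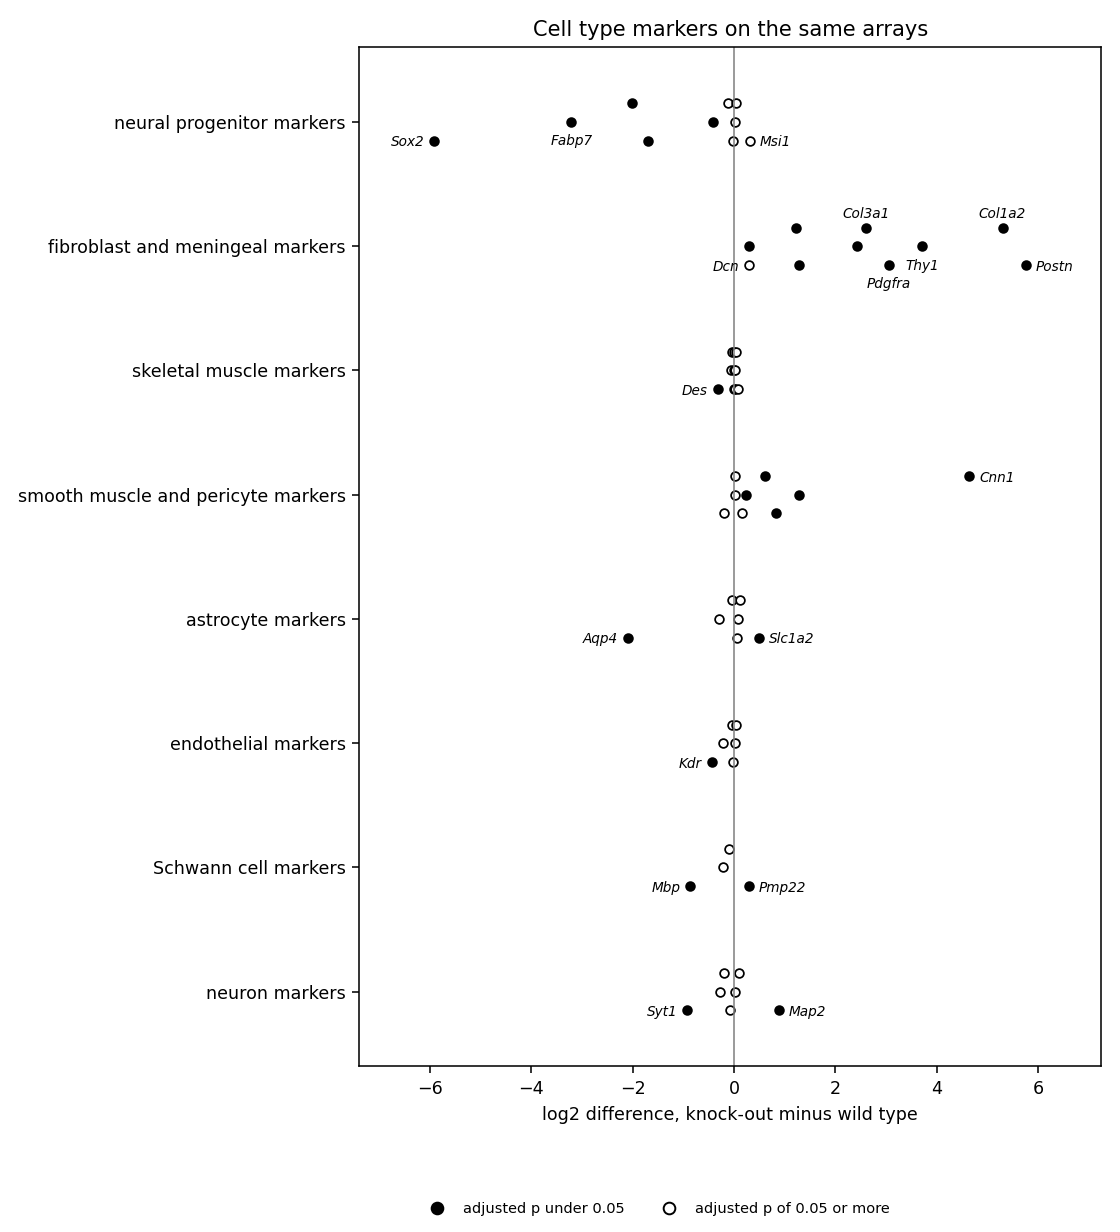
Log2 differences, knock-out minus wild type, of the measured markers of 8 cell types (1 point per gene, filled when the limma adjusted p is under 0.05; vertical offsets only separate points). Fibroblast and meningeal markers lie to the right of 0, up to Postn at 5.77, neural progenitor markers reach down to Sox2 at −5.92, and skeletal muscle markers stay within −0.32 and 0.08.

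By the root mean square difference of gene-centred values over the 6 arrays, the gene whose pattern was nearest to that of Dtna was Gnai1, an inhibitory G protein α subunit (0.11 log2 units). Its means were 6.45 in knock-out and 10.71 in wild-type cells. Next came Chsy3, a chondroitin synthase (0.17), Apela, a peptide ligand of the apelin receptor (0.18), Skida1 (0.22) and Rab3b, a GTPase of secretory vesicles (0.25). The genotype differences of these genes were −4.25, −4.16, −4.01, −4.25 and −4.56 in the same order, beside −4.21 for Dtna. Since the genes were picked for nearness to Dtna on the same 6 arrays, differences close to that of Dtna follow from the choice.

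The members lie on 9 different chromosomes, Dtna on chromosome 18, Sgcd on chromosome 11 and Dmd on chromosome X. The 2 nearest measured protein-coding genes on each side of a member, in the order of the reference gene table, were set beside it. The 4 neighbours of Sgcd had log2 differences between 0.01 and 0.13 and none was called. The 4 neighbours of Dtna lay between −0.31 and 0.77, with 1 called higher and 1 lower. Over the 36 neighbours of all members 27.8% were called, against 31.6% of all genes, and 1 differed at least 2-fold: Has2, a hyaluronan synthase next to Sntb1, with means of 8.24 ± 0.443 in knock-out and 5.62 ± 0.0559 in wild-type cells (SD, n = 3 each; log2 difference 2.62).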

How the data were processed

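RNA of 3 Lgi1 knock-out and 3 Lgi1 wild-type samples was labelled from 250 ng as biotinylated cDNA, per the labels' protocols, and hybridized to 1-colour arrays, 1 sample each. The deposited table holds log2 values for 35556 probe sets; the scale was judged from their range. Per the submitters' processing notes Partek was used, with no version; the sources used here do not give the background correction, normalization or summarization. Values were used as deposited, with genotype and replicate number from the sample titles. The precision is limited by the number of arrays.

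GEO's platform annotation gave 1 symbol to 21789 probe sets, and the probe set with the highest mean was kept, leaving 19938 genes. Gene IDs of 21698 probe sets matched the reference table (GRCm38.p6), used for names, chromosomes and gene order. limma 3.58.1 in R 4.3.3 (lmFit, eBayes) compared the genotypes over all genes with Benjamini-Hochberg adjustment. On simulated data with 19938 genes it called 80% of 50 genes changed by 0.5 log2 units, 96% by 1 and 100% by 2 or 4, along with 7 unchanged genes. Only these 50 genes of each size were changed there, with independent noise. The rates therefore need not hold for the deposited values, where 31.6% of genes were called.

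The members and the lists were chosen with earlier results of these data known. Named genes were all members, called list genes with an absolute difference of at least 0.5, up to 2 others a list, up to 4 markers a list and the 5 genes nearest to Dtna. Sgca, Sgce, Sgcz, Sntg1, Sntg2, Pomgnt1, Pomt1, Abca1, Kcnj10, Has2, some markers given for their level or lack of a call and the gene-order and promoter descriptions were chosen after values were seen. Across genes, arrays of the same replicate number deviated together from their genotype's mean (correlations 0.19 to 0.29, other pairs −0.18 to −0.0047). The numbers were thus taken to pair the samples, and the replicate block was an alternative. Other alternatives were quantile normalization, median centring, 2 filters on dim genes, averaging of probe sets, array weights, limma's trend and robust options, and leaving out each array.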

Additional observations from a re-analysis of the deposited data

How the results depend on the processing

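In the test as reported 7 members were called, and over 14 alternatives 6 to 7, and no member changed direction. Among the members only Dag1 changed its side of the threshold, with log2 differences of −0.22 to −0.17 when 1 array was left out. In the rest of the complex, 0 of 7 genes were called. Drp2 made it 1 of 7 with the replicate number as a block, with quantile normalization and with centred arrays. Among genes above the median level it was 1 of 3, again Drp2. With 1 array left out the count was 0 to 1. The filter at the median level left Dmd out, so that its differences have no value there. With the replicate number as a block, 7 members were again called, and 7000 genes in all against 6296; among Lgi1, the members and the list genes it added calls for Lgi1, Drp2, Pomt1, Abca1, Msi1, Gja1, Egr2, Tubb3 and Stmn2 and removed none. Counts of called genes in the lists of glycosylation genes (6 to 9), ligands (3 to 4) and intracellular partners (7 to 11) stayed within 1.5 times the main counts. The filter at the median level left out dim genes of these lists and gave 6 of 12, 3 of 4 and 7 of 10. The near-zero difference of Sgce was −0.0237 with centred arrays and ran from −0.027 to 0.0542 with 1 array left out, below 0 without knock-out replicate 2 or wild-type replicate 3. That of Myod1 ran from −0.0981 to 0.001, above 0 without wild-type replicate 2. The cause was not tested. The differences between paralogues kept their sign under all alternatives run. Signals under the background level, as for Dtna in knock-out and Sgcd and Dmd in wild-type cells, limit the size of these differences.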
